A study of Mus musculus with 6 samples.

Results

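Feedback inhibitors of mitogen-activated protein kinase (MAPK) signaling were measured by RNA-seq in tumor-associated macrophages (TAMs) of mice with and without Cre-mediated deletion of a floxed Pdcd1 gene, which encodes the inhibitory receptor PD-1. The 10 transcripts were taken by gene symbol from the deposited tables, which list 55421 Ensembl genes. They are the dual-specificity phosphatase genes Dusp1, Dusp2, Dusp4, Dusp5, Dusp6, Dusp10 and Dusp16, the Sprouty genes Spry1 and Spry2, and Spred1. Each symbol matched 1 Ensembl gene, and all 10 were among the 14469 genes that passed the filter on low counts and were tested. There were 3 libraries from Pdcd1f/f mice, which carry the floxed gene without Cre, and 3 from Pdcd1f/fLysMcre mice, which carry the same floxed gene and Cre recombinase expressed from the lysozyme M promoter (LysM-Cre). TAMs came from subcutaneous fibrosarcomas (tumor cells named M17 in the labels) at day 15 after implantation and were sorted as live CD45+CD11b+F4/80+Ly6G- cells. The study's methods give 1 range of ages in weeks for all of its tumor implantations, and the age and number of mice behind a library are not given in the sources used here. The lysozyme promoter drives Cre in neutrophils and monocytes as well as in macrophages, so the deletion is not limited to the sorted cells. The study asked what loss of PD-1 in myeloid cells does to signaling, differentiation and antitumor function.

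Growth factor receptors, cytokine receptors and pattern recognition receptors of macrophages activate the kinases ERK, JNK and p38 through cascades that run from the membrane to the nucleus. Active MAPKs carry phosphate on a threonine and a tyrosine of their activation loop, and dual-specificity phosphatases (DUSPs) of the MAPK phosphatase class remove both. Many of these genes are switched on by the kinases they turn off, which makes them a negative feedback. Sprouty and Spred proteins act higher in the cascade, between receptors and Ras. Transcript levels of these genes report how much message for an inhibitor was present, and neither the protein nor phosphorylated kinase was measured in these libraries.

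The promoter sequences of Dusp1, Dusp5 and Dusp6 are shown because the most abundant transcript, the most abundant one that rose and the one that fell differ in the motifs found just upstream of their start. RefSeq windows of the build GRCm38.p6 were present for 9 of the 10 genes, with none for Dusp4. The 250 bases before the start were searched on both strands. Capitals mark matches to the cAMP response element, CRE (TGACGTCA), and to its truncated form (TGACGTC), which is part of it, in Dusp1, to the CArG box, the binding sequence of serum response factor, in Dusp5, and to the CCAAT box (CCAAT, here ATTGG on the printed strand) in Dusp6. Each line gives bases before the RefSeq start that lie in no annotated exon, 5′ to 3′ on the strand of the gene. The Dusp1 stretch lies within the span of the annotated gene, which includes transcripts that start further upstream.
Dusp1, chr17:26508520-26508722, minus strand: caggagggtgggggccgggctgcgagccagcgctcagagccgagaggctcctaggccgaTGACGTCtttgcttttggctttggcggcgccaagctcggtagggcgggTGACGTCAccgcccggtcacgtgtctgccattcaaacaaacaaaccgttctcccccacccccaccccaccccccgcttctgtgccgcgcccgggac
Dusp5, chr19:53528895-53529108, plus strand: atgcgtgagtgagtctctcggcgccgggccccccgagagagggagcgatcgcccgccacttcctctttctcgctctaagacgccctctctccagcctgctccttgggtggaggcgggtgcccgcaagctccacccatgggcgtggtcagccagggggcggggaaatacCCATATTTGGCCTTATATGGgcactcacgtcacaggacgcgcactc
Dusp6, chr10:99262981-99263230, plus strand: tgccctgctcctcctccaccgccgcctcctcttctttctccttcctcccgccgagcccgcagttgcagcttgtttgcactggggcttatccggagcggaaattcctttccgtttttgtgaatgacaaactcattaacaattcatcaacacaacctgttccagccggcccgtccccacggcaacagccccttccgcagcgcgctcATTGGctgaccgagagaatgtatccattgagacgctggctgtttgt

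In the Dusp5 promoter 2 CArG boxes stood side by side, at positions -82 to -73 and -72 to -63 counted from the RefSeq start. A CArG box was present in 1.47% of the 32851 mouse windows searched in the same way. Dusp1 held a full CRE at -143 to -136, a motif present in 1.55% of all windows, and a further truncated CRE at -191 to -185, a motif present in 2.78%. The CCAAT box of Dusp6, at -46 to -42, is a frequent motif and was present in 33.8% of all windows. The E-box CACGTG stood in Dusp1 and Dusp2 (6.02% of all windows), and CCAAT also in Dusp10, Dusp16 and Spry1. None of the 9 windows held the NF-kB site (3.9% of all windows), the ETS site (CCGGAAGT), the AP-1 site (TGACTCA or TGAGTCA) or the TATA box (TATAAA) in its 250 bases upstream, and the last 3 were present in 2.88%, 4.46% and 12.4% of all windows. These matches describe sequence, and no binding was measured.

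Library totals were 41833823 to 51417209 counts, so the least abundant of the 10 transcripts, Dusp10, was still counted at 504 to 629 in each library. Lyz2, whose locus carries the Cre insertion in the LysM-Cre strain, fell from 216864 ± 8638 to 427 ± 33.4 normalized counts (mean ± SD, n = 3 each), which fits the labels of all 6 libraries. Pdcd1 itself was counted 10, 12 and 15 times in Pdcd1f/f and 7, 16 and 11 times in Pdcd1f/fLysMcre libraries, too few to show the deletion. Cre and the loss of Lyz2 transcript went with the genotype in all 6 libraries. Their part in any change cannot be told apart from that of the Pdcd1 deletion. Macrophage markers were abundant in every library, and those of T, B and NK cells were near 0 apart from Cd4. Pdcd1f/f replicate 1 and Pdcd1f/fLysMcre replicate 2 stood apart from the others in a trend of counts with the GC content of the gene. The rank correlation across genes between a library's deviation from its genotype mean and GC content was -0.575 and -0.486 in these libraries and 0.117 to 0.508 in the other 4. Changes are therefore given also with offsets that remove the trend with GC content and length from each library, and without both of these libraries. Xist, from the inactive X chromosome, was at 367 to 565 CPM (counts scaled to a common library total) in Pdcd1f/f and 181 to 276 in Pdcd1f/fLysMcre libraries, and the sum of 4 Y-linked genes was at 32.7 to 40.8 and 133 to 151. Both kinds of transcript were thus present in all 6 libraries, at levels that did not overlap between the genotypes. The study's methods state that mice of both sexes were used in like number throughout, and in these libraries a difference in the mix of sexes cannot be told apart from the genotype.

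Of the 10 transcripts, 4 rose in Pdcd1f/fLysMcre TAMs and 1 fell (edgeR quasi-likelihood test, Benjamini-Hochberg adjusted p under 0.05 over all genes tested). Dusp4, Dusp5, Dusp16 and Spred1 rose by 1.19-fold to 1.32-fold, and Dusp6 fell to 0.786 of its level in Pdcd1f/f. Dusp1, Dusp2, Dusp10, Spry1 and Spry2 did not pass. At an unadjusted p under 0.05, against 24.2% of all genes, 7 of the 10 stood, and the same number passed with DESeq2 and Benjamini-Hochberg adjustment, where Dusp1 and Dusp2 were added as lower and 11.1% of all genes passed. Over all genes tested with edgeR, 5.43% passed, 2.42% higher and 3.01% lower, and among the 8090 genes at least as abundant as Dusp10 the share was 7.05%. The libraries of the genotypes did not overlap for 8 of the 10 transcripts, 4 higher and 4 lower, against 27.5% of all genes tested, 14.7% higher and 12.8% lower. The 10 transcripts were chosen with earlier results of these data known. Shares over all genes are therefore given for description, not as a test of the group. The median log2 fold change of the 10 was -0.04, beside -0.0026 for all genes, with calls in both directions. In bulk RNA, more cells of a type with the transcript and more transcript per cell cannot be told apart.

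**Figure D1:**
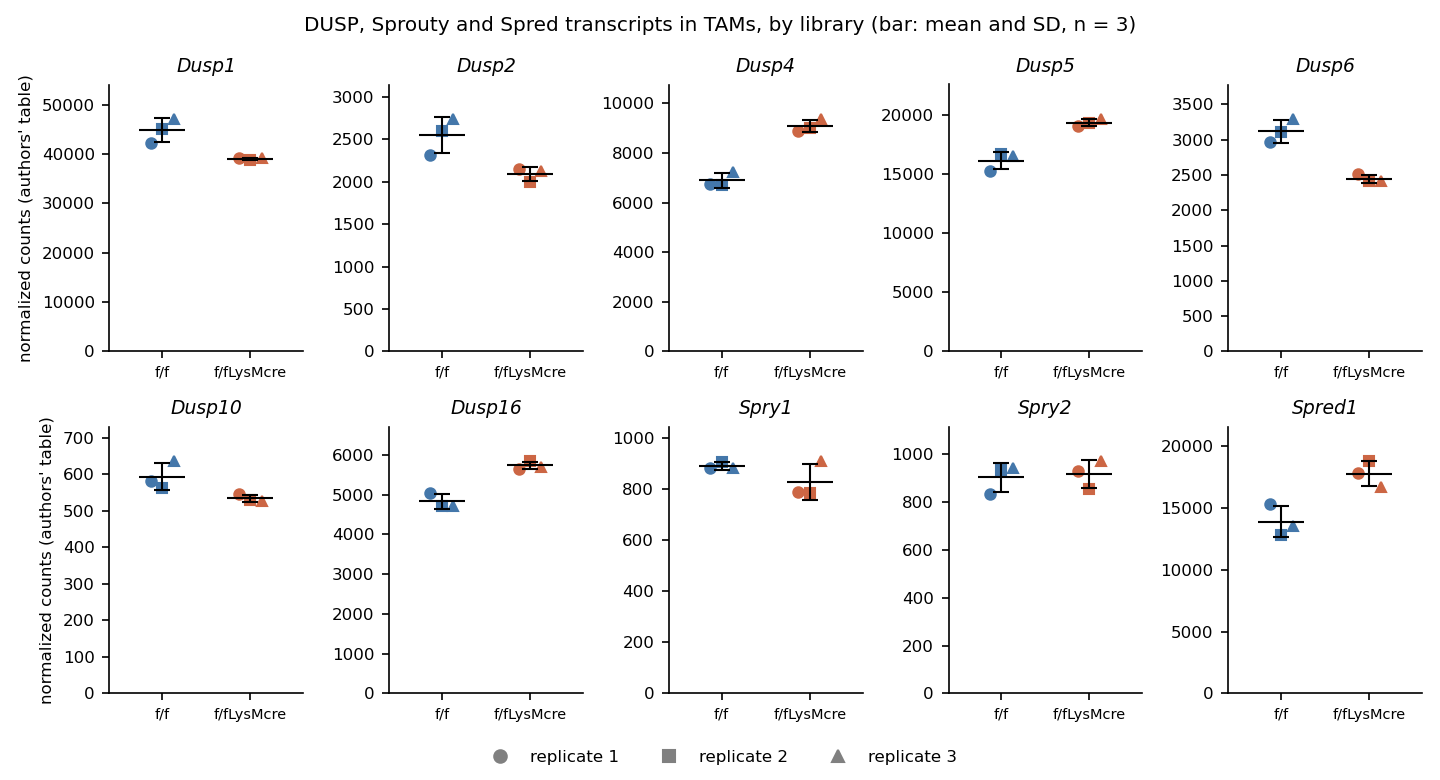
Normalized counts of each transcript in the 6 libraries, with 1 point per library, the replicate number given by the symbol, and the mean and SD of 3 libraries as bars; each vertical axis starts at 0. The points of the genotypes do not overlap for any gene but Spry1 and Spry2, and the differences are small against the level of each gene.

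Per length of exon, the 10 transcripts spanned from 268 CPM per kb for Dusp1 (range 245 to 301 over the 6 libraries) to 3.93 for Dusp10 (3.65 to 4.43). Dusp5 was second at 152 (132 to 169). Dusp4 at 61.8 (52.4 to 72.7) and Spred1 at 49.4 (40.5 to 57.8) had overlapping ranges, and so did Dusp2 at 24.6 (20.9 to 28.9) and Dusp6 at 18.9 (16.1 to 22.2). Within each library, though, Dusp4 was above Spred1 and Dusp2 above Dusp6 in 6 of 6. Dusp16 at 14.3 (12.8 to 15.7), Spry2 at 9.25 (8.51 to 9.9) and Spry1 at 6.26 (5.64 to 6.68) followed, each without overlap with its neighbors. The nuclear phosphatase genes Dusp1, Dusp5 and Dusp4 thus led the order, with Dusp2 of the same class below Spred1, and the Sprouty genes and Dusp10 closed it. These levels use the union of exons of the annotation, which can include isoforms the cells did not use.

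**Figure D2:**
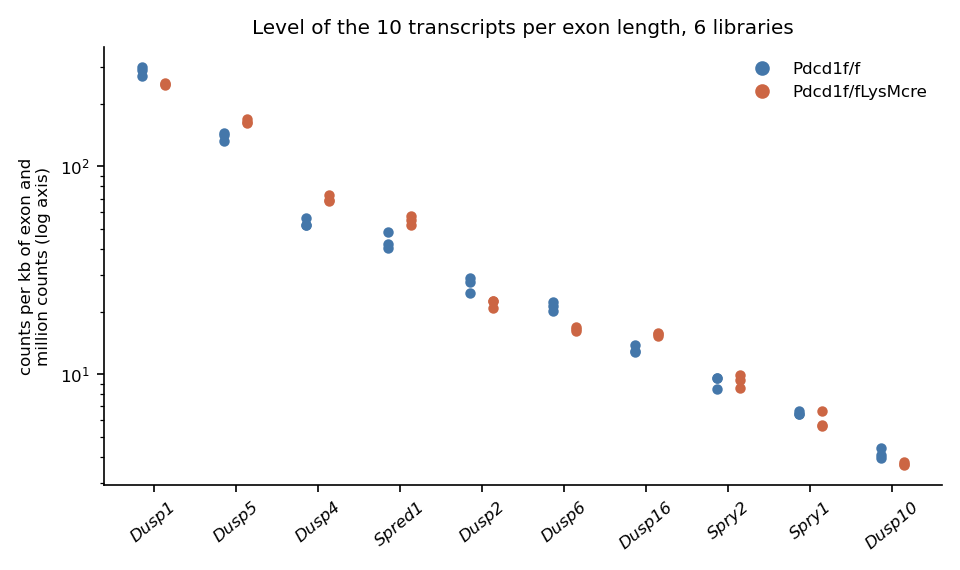
Level of the 10 transcripts as CPM per kb of exon on a log axis, with 1 point per library and the genotypes side by side. Dusp1 is highest at 245 to 301 and Dusp10 lowest at 3.65 to 4.43, and the order of the genes is the same in each genotype wherever ranges are apart.

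Among the inducible nuclear phosphatases, Dusp4 and Dusp5 rose. Dusp4 encodes MKP-2, which acts on ERK and JNK and lies on the plus strand at chr8:34807297-34819894 of GRCm38. Its normalized counts were 6739, 6717 and 7250 in Pdcd1f/f and 8880, 9017 and 9360 in Pdcd1f/fLysMcre libraries. All 3 libraries with Cre were above all 3 without it, with a gap that exceeded the range within either genotype. The means were 6902 ± 302 and 9086 ± 248 (SD, n = 3), and the log2 fold change was 0.40 (SE 0.06, edgeR adjusted p = 0.00439). Dusp4 had the smallest p of the 10 and the steadiest call, which was lost when Pdcd1f/f replicate 2 was left out (edgeR adjusted p = 0.0508) and held in the other 5 fits that left out 1 library.

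Dusp5 encodes a phosphatase that acts on ERK and holds it in the nucleus (chr19:53529109-53542431, plus strand). It was counted, after normalization, at 15271, 16663 and 16482 in Pdcd1f/f and at 19050, 19292 and 19622 in Pdcd1f/fLysMcre libraries. The libraries with Cre lay close together and above every library without it. Dusp5 rose from 16139 ± 757 to 19321 ± 287 (SD, n = 3), a log2 fold change of 0.26 (SE 0.06, edgeR adjusted p = 0.0343). This call held in 1 of the 6 fits that left out 1 library, the one without Pdcd1f/f replicate 1 (edgeR adjusted p = 0.0238), and reached 0.135 in the others. An antisense gene, AC137853.2, overlaps 547 exon bases of Dusp5 and was counted 3 to 23 times, which is negligible beside Dusp5 itself.

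Dusp1 and Dusp2 lay on the other side. Dusp1 encodes MKP-1, which turns off p38 and JNK in activated macrophages, and spans chr17:26505590-26562128 on the minus strand in the annotation. It shares 11 exon bases with Ergic1 on the opposite strand, which was counted 4717 to 5703 times. The normalized counts of Dusp1 were 42227, 45109 and 47064 in Pdcd1f/f and 39159, 38727 and 39192 in Pdcd1f/fLysMcre libraries. The groups did not overlap, and the libraries with Cre differed little among themselves. The log2 fold change was -0.20 (95% interval -0.33 to -0.06, edgeR adjusted p = 0.0869), which did not pass. Without both libraries that stood apart in GC content it was -0.24 (edgeR adjusted p = 0.000712), and with offsets for GC content and length it was -0.10 (edgeR adjusted p = 0.0633), so the size of the difference depends on how that trend is treated.

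Dusp2 encodes PAC-1, a nuclear phosphatase of activated leukocytes (chr2:127336159-127338376, plus strand). It was at 2320, 2599 and 2735 normalized counts in Pdcd1f/f and at 2147, 2001 and 2128 in Pdcd1f/fLysMcre libraries. The groups did not overlap, with Pdcd1f/f replicate 1 nearest to the libraries with Cre. The log2 fold change of -0.28 (95% interval -0.46 to -0.11) had an edgeR adjusted p of 0.0625. It was -0.32 without both libraries that stood apart (edgeR adjusted p = 0.000757) and -0.12 with the offsets (edgeR adjusted p = 0.123).

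Dusp6, the 1 transcript of the 10 that fell, encodes MKP-3, a cytoplasmic phosphatase selective for ERK (chr10:99263231-99267489, plus strand). Its normalized counts were 2967, 3109 and 3289 in Pdcd1f/f and 2515, 2418 and 2416 in Pdcd1f/fLysMcre libraries. Every library with Cre was below every library without it, and the fall was alike in all 3. The means were 3122 ± 162 and 2450 ± 56.5, and the log2 fold change was -0.35 (SE 0.07, edgeR adjusted p = 0.0144). The call held without Pdcd1f/f replicate 1 and without Pdcd1f/fLysMcre replicate 3, and in the other 4 fits that left out 1 library the edgeR adjusted p reached 0.0954. With offsets for GC content and length the log2 fold change stayed at -0.36 (edgeR adjusted p = 9.21e-05) and passed with each library left out. Dusp6 lies 18.0 Mb from Lyz2 on the same chromosome. Of the 162 tested genes within 20 Mb of Lyz2, 11 passed (6.79%), 3 of them lower. Over all genes tested 5.43% passed, 3.01% as lower.

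Of the phosphatases of JNK and p38, Dusp16 rose and Dusp10 did not pass. Dusp16 encodes MKP-7 (chr6:134715468-134792625, minus strand) and was at 5041, 4719 and 4718 normalized counts in Pdcd1f/f and at 5655, 5836 and 5703 in Pdcd1f/fLysMcre libraries. The groups were apart, with a smaller spread within genotype than any other of the 10 transcripts. Dusp16 rose from 4826 ± 186 to 5731 ± 93.9 with a log2 fold change of 0.25 (SE 0.06, edgeR adjusted p = 0.038), and it passed in 1 of the 6 fits that left out 1 library, that without Pdcd1f/f replicate 1 (edgeR adjusted p = 0.00872), reaching 0.206 in the others.

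Dusp10 encodes MKP-5 (chr1:184013302-184075636, plus strand). Its normalized counts were 583, 563 and 636 in Pdcd1f/f and 546, 531 and 526 in Pdcd1f/fLysMcre libraries. The groups did not overlap, but the gap between them was smaller than the range within Pdcd1f/f. Its log2 fold change was -0.15 (95% interval -0.35 to 0.05, edgeR adjusted p = 0.325), and it did not pass under any of the 24 alternative analyses.

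Sprouty transcripts showed no detectable difference, whereas Spred1 rose. Spry1 and Spry2 encode proteins that hold back Ras activation below receptor tyrosine kinases. Spry1 (chr3:37639947-37644598, plus strand) was at 881, 907 and 881 normalized counts in Pdcd1f/f and at 790, 784 and 909 in Pdcd1f/fLysMcre libraries. Replicate 3 with Cre was the highest of all 6, and the groups overlapped. The log2 fold change was -0.10 (95% interval -0.29 to 0.09, edgeR adjusted p = 0.501), and it turned to 0.03 with the offsets. The uncharacterized gene Gm42922 overlaps 710 exon bases of Spry1 on the opposite strand and was counted 1 to 6 times.

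Spry2 (chr14:105891947-105896819, minus strand) was at 833, 934 and 943 normalized counts in Pdcd1f/f and at 931, 855 and 971 in Pdcd1f/fLysMcre libraries. The groups overlapped throughout. The log2 fold change was 0.03 (95% interval -0.17 to 0.22, edgeR adjusted p = 0.875) and turned to -0.01 with the offsets, so changes within this interval in either direction could not be told from none.

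Spred1 encodes a membrane protein that brings the Ras inactivator neurofibromin to Ras (chr2:117121374-117182279, plus strand). Its normalized counts were 15332, 12835 and 13520 in Pdcd1f/f and 17817, 18763 and 16702 in Pdcd1f/fLysMcre libraries. The groups were apart, although Spred1 had the largest spread within genotype of the 10 transcripts, with the libraries that stood apart in GC content the highest of their genotype. The means were 13896 ± 1290 and 17761 ± 1032, and the log2 fold change was 0.36 (SE 0.08, edgeR adjusted p = 0.026). Spred1 has the lowest GC content of the 10 transcripts (41.2%), and with the offsets its log2 fold change was 0.23 (SE 0.04, edgeR adjusted p = 0.000481), a smaller change with a smaller error. Among the fits that left out 1 library it passed without Pdcd1f/f replicate 1 and without Pdcd1f/fLysMcre replicate 3, and reached an edgeR adjusted p of 0.151 in the other 4.

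**Figure D3:**
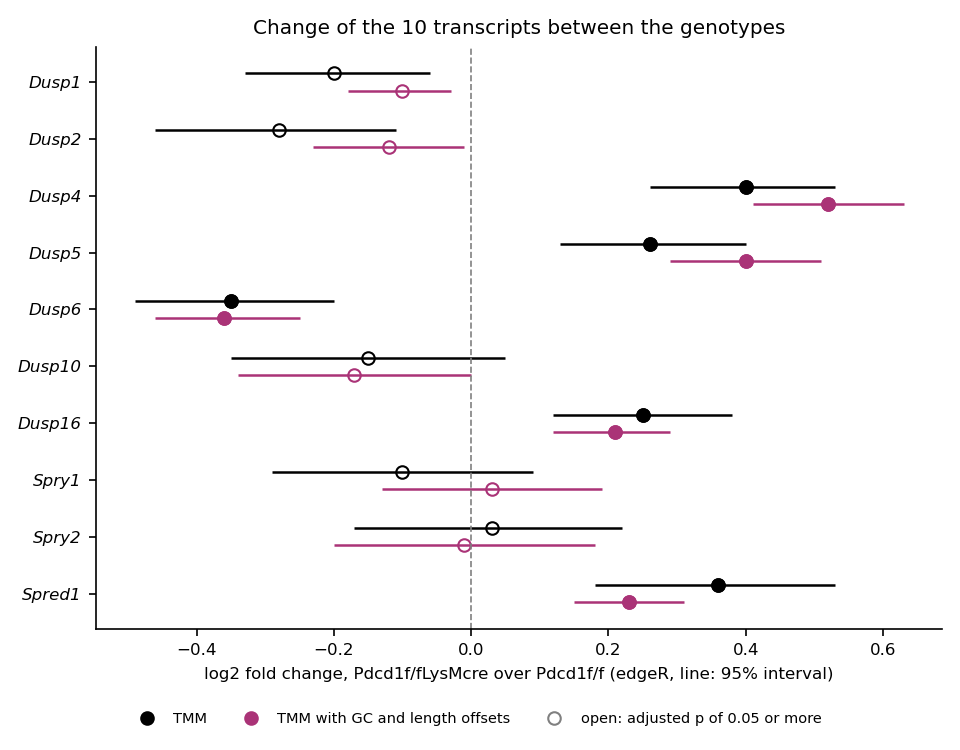
Log2 fold change of each transcript in Pdcd1f/fLysMcre over Pdcd1f/f with its 95% interval, from edgeR with TMM scaling (black) and with added offsets for GC content and length (purple); filled points had an adjusted p under 0.05. The same 5 transcripts are filled in both fits, Dusp4 at 0.40 and 0.52 and Dusp6 at -0.35 and -0.36.

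With the offsets, the same 5 transcripts passed in the same directions, against 17.9% of all genes tested in that fit, 8.94% higher and 8.92% lower. Dusp4 moved from 0.40 to 0.52 (edgeR adjusted p = 3.8e-06) and Dusp5 from 0.26 to 0.40 (edgeR adjusted p = 3.62e-05). Dusp16 moved from 0.25 to 0.21 (edgeR adjusted p = 0.00135). The GC-rich transcripts Dusp4 and Dusp5 thus rose by more under the offsets and the GC-poor Spred1 by less, with the calls kept. Without both libraries that stood apart in GC content, the log2 fold changes were 0.38 for Dusp4, 0.22 for Dusp5 and 0.39 for Spred1. The size of these changes thus depends on how the trend is treated. The offsets lowered the SD of log2 CPM within genotype for Spred1 from 0.108 to 0.0394 and raised it for Dusp4 from 0.0505 to 0.0877 and for Dusp5 from 0.0534 to 0.084. This SD also rose for Dusp6, Dusp10, Spry1 and Spry2. Over all genes tested its median was 0.141 before and 0.0946 with the offsets. All 10 transcripts were below 0.141 before the offsets, while with them Spry1 (0.107) and Spry2 (0.156) were above 0.0946.

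Ratios of 2 transcripts in the same library do not depend on library size. The ratio of Dusp4 to Dusp6 counts was 2.27, 2.16 and 2.2 in Pdcd1f/f and 3.53, 3.73 and 3.87 in Pdcd1f/fLysMcre libraries. The groups were far apart relative to their spread, a difference of 0.75 on the log2 scale (exact permutation test, two-sided p = 0.1, the smallest that 3 against 3 libraries allow). The ratio of Dusp5 to Dusp6 went from 5.15, 5.36 and 5.01 to 7.58, 7.98 and 8.12, a difference of 0.61 on the log2 scale. The nuclear phosphatase transcripts Dusp4 and Dusp1 also shifted against each other, with a ratio of 0.16, 0.149 and 0.154 in Pdcd1f/f and of 0.227, 0.233 and 0.239 in Pdcd1f/fLysMcre libraries. Dusp5 to Dusp2 and Dusp16 to Dusp10 likewise did not overlap between the genotypes, with differences of 0.54 and 0.40 on the log2 scale and the same exact permutation p of 0.1, whereas Spred1 to Spry2 overlapped (difference 0.33, exact permutation p = 0.2). In each ratio that did not overlap, a gene with all Cre libraries above was divided by a gene with all of them below. Lack of overlap and the exact permutation p of 0.1 were thus fixed by the single genes. These 6 ratios were chosen with the results for each gene known and are a description.

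The number of transcripts that passed moved with the library left out. Without Pdcd1f/f replicate 1, 7 passed, now with Dusp1 (edgeR adjusted p = 0.0123) and Dusp2 (edgeR adjusted p = 0.00487) lower, and calls rose over all genes as well, to 21.6%. Without Pdcd1f/f replicate 2 the edgeR count was 0 of 10, where 1.51% of all genes passed, with 7 of the 10 at an unadjusted p under 0.05, where 14.8% of all genes stood. Dusp4 alone passed without Pdcd1f/f replicate 3 and without Pdcd1f/fLysMcre replicate 1 or 2, where 2.38%, 1.51% and 2.5% of all genes passed, and 3 of the 10 passed without Pdcd1f/fLysMcre replicate 3, against 3.56%. The direction of the 5 that passed was the same in all 6 fits, and their log2 fold changes ranged from 0.37 to 0.43 for Dusp4, 0.21 to 0.29 for Dusp5, -0.39 to -0.31 for Dusp6, 0.23 to 0.27 for Dusp16 and 0.30 to 0.42 for Spred1. With the offsets, these 5 passed in each of the 6 fits, in which 22.8%, 9.97% and 11.7% of all genes passed without Pdcd1f/f replicates 1, 2 and 3, and 12.8%, 12.9% and 13.6% without those with Cre. Without both libraries that stood apart in GC content, 7 of the 10 passed, against 26.2% of all genes. The log2 fold changes there were -0.24 for Dusp1, -0.32 for Dusp2, 0.38 for Dusp4, 0.22 for Dusp5, -0.38 for Dusp6, 0.26 for Dusp16 and 0.39 for Spred1 (edgeR adjusted p = 2.71e-05 to 0.00182). Dusp10, Spry1 and Spry2 were at -0.17, -0.08 and 0.02 in that fit and did not pass. Among other settings, 5 of the 10 passed with RLE size factors, a minimum of 10 counts in every library, limma-trend and the replicate block, against 5.4%, 6.2%, 5.37% and 7.1% of all genes. Library size alone gave 4 against 5.58%, and every gene with at least 1 count gave 7 against 7.32%. DESeq2 with Storey adjustment also gave 7, against 13.5%, with Dusp1 and Dusp2 among them as lower. A minimum fold change of 1.2 gave 0 against 1.33%, with 3 at an unadjusted p under 0.05 against 7.42%.

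**Figure D4:**
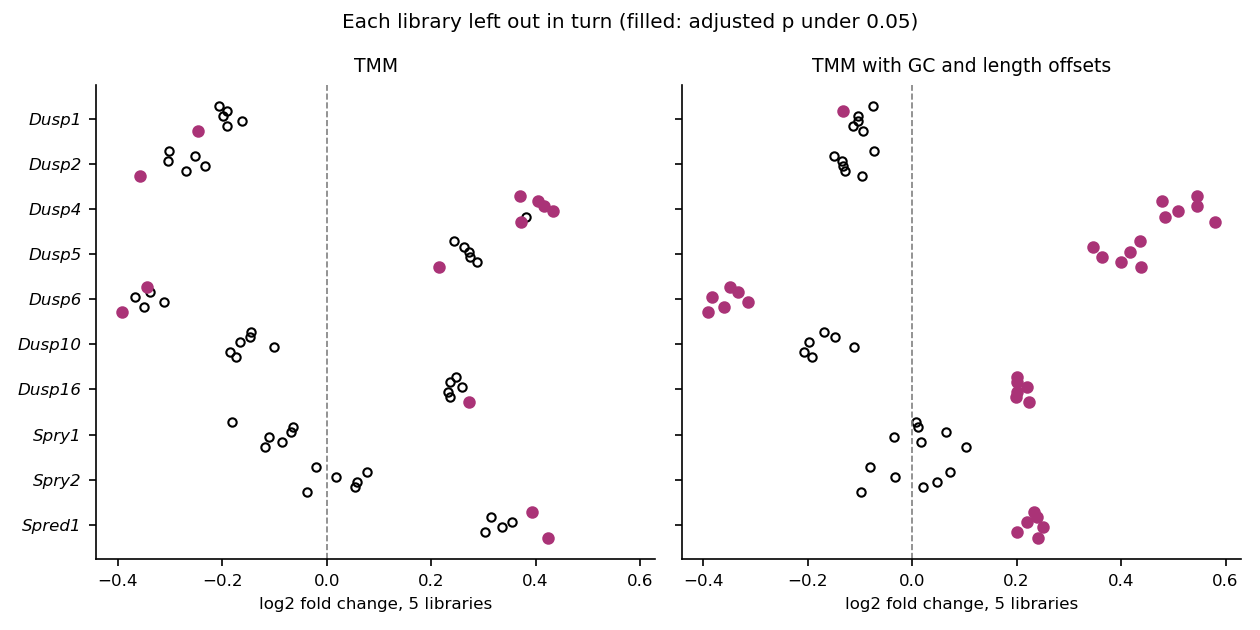
Log2 fold change of each transcript with 1 library left out at a time, in the fit with TMM scaling (left) and with added offsets for GC content and length (right); each point is 1 fit to 5 libraries, filled where the adjusted p was under 0.05. Dusp4, Dusp5, Dusp6, Dusp16 and Spred1 keep their side of 0 in every fit, and all their points are filled in the right panel, while Spry1 in the right panel and Spry2 in both panels lie on both sides of 0.

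The other genes of these pathways were read from lists of 105 genes, of which 99 were tested. Of these, 4 rose and 7 fell, 11 in all, with a median log2 fold change of -0.01. The share of all genes tested that passed was 2.42% higher and 3.01% lower, 5.43% in all, the background for the count of each list. These lists too were chosen with earlier results of these data known, so the shares are given for description. With the offsets the split of the pathway genes was 14 higher and 13 lower, against 8.94% and 8.92% of all genes. None of the 3 other MAPK phosphatases passed in edgeR with TMM scaling alone. At an unadjusted p under 0.05 stood 1, against 24.2% of all genes, and DESeq2 called 1, against 11.1%. Dusp7, a cytoplasmic relative of Dusp6, was at 1886 ± 175 in Pdcd1f/f and 2327 ± 199 normalized counts in Pdcd1f/fLysMcre (log2 fold change 0.31, edgeR adjusted p = 0.0732) and passed with the offsets (0.46, edgeR adjusted p = 0.0187). Dusp9, the third of this kind, was at 1203 ± 84.8 and 1214 ± 68.4. Dusp18, a small DUSP outside the MAPK phosphatase class, rose from 1426 ± 51.4 to 1709 ± 16.3 (log2 fold change 0.26, edgeR adjusted p = 0.0491), as the 1 of 9 small DUSPs tested that passed in edgeR. At an unadjusted p under 0.05 stood 3 of the 9, against 24.2% of all genes, and DESeq2 called 2, against 11.1%. With limma-trend 0 passed, against 5.37%, and with the offsets 3, against 17.9%. Among them Dusp14, named after its values were seen, was at 142 ± 20.3 and 199 ± 7.43 without overlap (log2 fold change 0.49, edgeR adjusted p = 0.0723, and 0.0114 with the offsets). Of the 4 other Sprouty and Spred genes 0 passed in edgeR. At an unadjusted p under 0.05 stood 1, against 24.2% of all genes, and DESeq2 called 1, against 11.1%, in both cases Spred3. It was at 481 ± 14.8 and 384 ± 26.4 without overlap of the libraries (log2 fold change -0.32, edgeR adjusted p = 0.078). Spred2 was at 2055 ± 123 and 2166 ± 63.5, and Spry4 was sparse, at 17.9 to 45.4 in Pdcd1f/f and 35.4 to 44.4 in Pdcd1f/fLysMcre libraries (edgeR adjusted p = 0.512).

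Among 19 tested regulators of Ras, 2 rose and 1 fell, against 2.42% and 3.01% of all genes. With the offsets 4 were higher and 1 lower, against 8.94% and 8.92%. Rasgrp1, an exchange factor that loads Ras with GTP, rose from 1026 ± 47.3 to 1356 ± 77.7 normalized counts (log2 fold change 0.40, edgeR adjusted p = 0.0151). Rasa2, which encodes a GTPase-activating protein that turns Ras off, rose as well, from 1538 ± 158 to 1992 ± 81.4 (log2 fold change 0.37, edgeR adjusted p = 0.0313). Rasal3, of the same enzyme class and known from leukocytes, fell from 713 ± 45.8 to 537 ± 33.7 (log2 fold change -0.41, edgeR adjusted p = 0.0328). Rasgrp1, which turns Ras on, and Rasa2, which turns it off, thus both rose, while Rasal3, of the class of Rasa2, fell. The adaptor Grb2, the most abundant of this list per length, was at 13873 ± 493 and 14419 ± 210 (edgeR adjusted p = 0.579). With the offsets it passed at a log2 fold change of 0.11 (edgeR adjusted p = 0.0486).

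In the cascade from Ras through RAF and MEK to ERK and RSK, 2 of 20 tested genes fell and none rose, against 3.01% and 2.42% of all genes. The scaffold Ksr1 fell from 146 ± 2.98 to 90.3 ± 10.2 normalized counts (log2 fold change -0.69, edgeR adjusted p = 0.0277), and the ERK-activated kinase gene Rps6ka1 from 3642 ± 502 to 2646 ± 152 (log2 fold change -0.46, edgeR adjusted p = 0.0259). Mapk3, which encodes ERK1, was at 5576 ± 517 and 4593 ± 458 and did not pass (log2 fold change -0.28, edgeR adjusted p = 0.1), while with the offsets it passed at a smaller log2 fold change of -0.13 (edgeR adjusted p = 0.032). In that fit 4 genes of this list were lower and 0 higher, against 8.92% and 8.94% of all genes. Of 18 tested genes of the JNK and p38 cascades, Map3k8 passed, which encodes the kinase TPL2 that activates MEK below Toll-like receptors. Map3k8 was thus not in the count of the cascade to ERK. It fell from 2441 ± 85.0 to 1988 ± 80.2 (log2 fold change -0.29, edgeR adjusted p = 0.0327). With the offsets 3 genes of these cascades passed as higher, Map2k3, Mapkapk2 and Mapk8, and Map3k8 as lower, against 8.94% and 8.92% of all genes.

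Genes known as transcriptional output of ERK gave no call in edgeR with TMM scaling, 0 of 14 tested, while 6 had an unadjusted p under 0.05, DESeq2 called 4 and limma-trend 1, against 24.2%, 11.1% and 5.37% of all genes. Fos, whose induction by ERK is a textbook response, was at 72426 ± 5904 normalized counts in Pdcd1f/f and at 59502 ± 2530 in Pdcd1f/fLysMcre (log2 fold change -0.28, edgeR adjusted p = 0.0508), and its libraries did not overlap. The related Fosl1 lay on the other side, at 411 ± 5.51 and 531 ± 39.9 (log2 fold change 0.37, edgeR adjusted p = 0.0514). Both were just outside the threshold. Egr1, the immediate-early gene, was at 12330 ± 559 and 12382 ± 341 (log2 fold change 0.01, edgeR adjusted p = 0.948). With the offsets, 2 of these genes passed higher and 4 lower, against 8.94% and 8.92% of all genes tested in that fit. Fosl1 and Ccnd1 were the higher ones, at log2 fold changes of 0.52 and 0.16. Fos, Ier2, Etv1 and Etv5 were the lower ones, at -0.23, -0.17, -0.28 and -0.2.

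Receptors upstream of Ras held the largest change of the lists. Met, the receptor of hepatocyte growth factor, rose from 2479, 1988 and 2002 normalized counts in Pdcd1f/f to 4159, 4021 and 3724 in Pdcd1f/fLysMcre libraries. Every library with Cre was well above all libraries without it (log2 fold change 0.88, SE 0.09, edgeR adjusted p = 0.00055), and Met passed with each library left out. Csf3r, Csf1r and Igf1r fell, with log2 fold changes of -0.51, -0.32 and -0.36 (edgeR adjusted p = 0.00686, 0.0308 and 0.0202). Csf1r, the receptor that macrophages need for survival, is by count among the most abundant transcripts here, at 67120 ± 4832 and 53819 ± 2755. The other 8 receptors of the 12 did not pass. Of the pathway genes that passed, Csf3r held in 5 of the 6 fits that left out 1 library and was lost without Pdcd1f/f replicate 2. Csf1r, Igf1r, Rasgrp1, Rasal3, Ksr1 and Rps6ka1 held in 2 of 6, and Rasa2, Map3k8 and Dusp18 in 1 of 6.

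**Figure D5:**
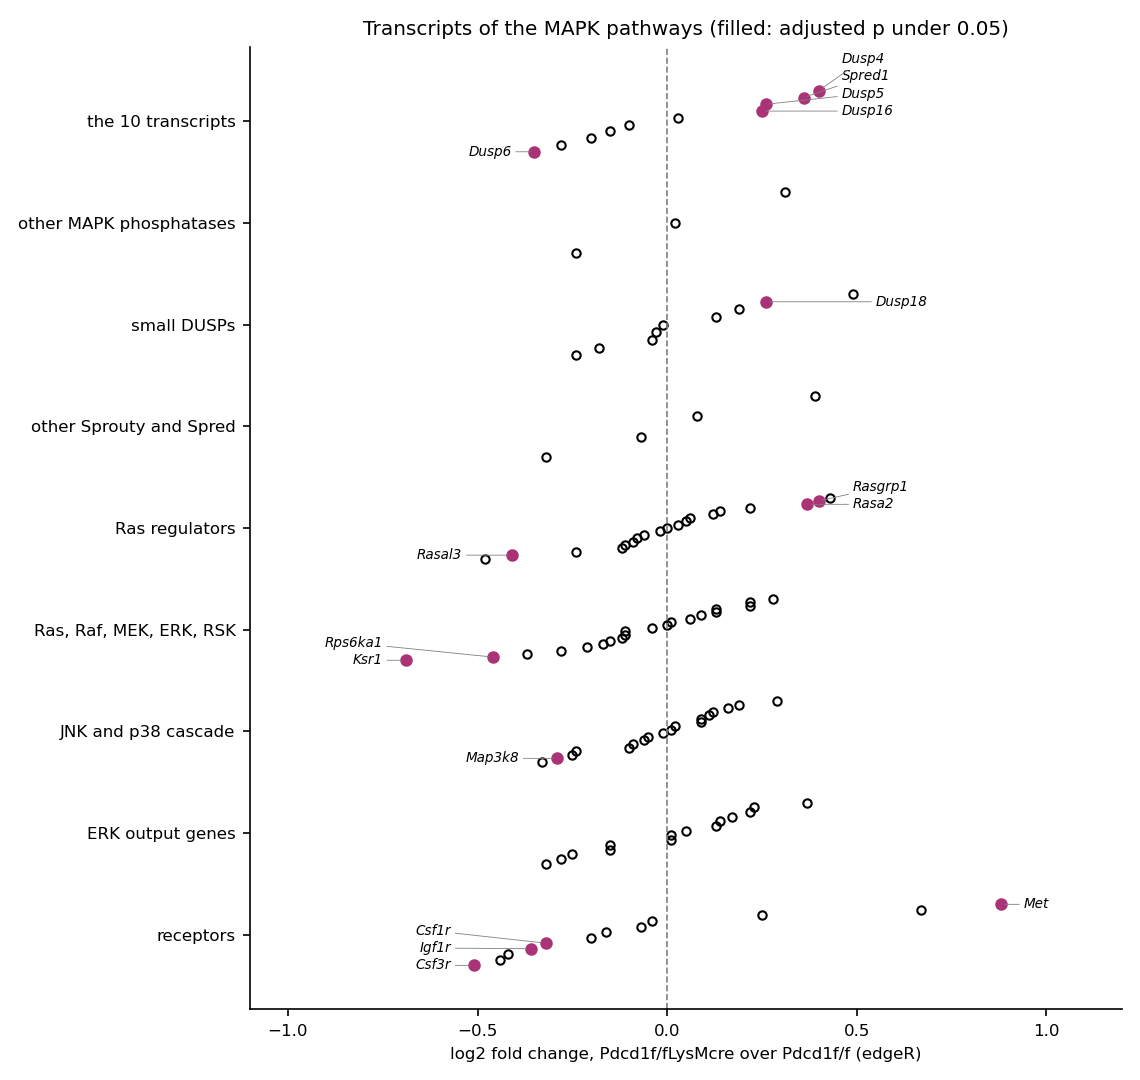
Log2 fold change in Pdcd1f/fLysMcre over Pdcd1f/f of the 10 transcripts and of 99 other tested genes of the MAPK pathways, by list, with 1 point per gene ordered by value within a list; filled and named points had an adjusted p under 0.05. Filled points lie on both sides of 0 in the top row, and the largest changes are Met at 0.88 and Ksr1 at -0.69.

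Markers of other cells moved with the genotype in part. The summed level of 9 neutrophil markers was 139 to 144 CPM in Pdcd1f/f and 116 to 120 in Pdcd1f/fLysMcre libraries, with Csf3r and Mmp8 lower among 6 tested, while the defining Ly6g, Camp and Ngp were at or near 0 in every library. S100a8, S100a9 and Cxcr2 had log2 fold changes of 0.23, 0.12 and 0.03 and did not pass, nor did Retnlg, at 0.766 to 1.0 CPM in Pdcd1f/f and 0.356 to 0.661 with Cre (log2 fold change -0.95, edgeR adjusted p = 0.11). The sum of 5 endothelial markers was 39.8 to 42.5 and 31.9 to 34.4, with Pecam1 lower among 3 tested, Cdh5 and Kdr at log2 fold changes of -0.01 and 0.02 without a call, and Tek and Cldn5 near 0. Among 8 macrophage markers, those that fell included Adgre1 and Csf1r, and the sum was 6130 to 6640 and 5680 to 5850, while Cd14 and Ptprc had log2 fold changes of 0.15 and 0.11 and did not pass. Sums of T cell markers (13.0 to 14.7 and 11.9 to 14.2), of fibroblast and tumor markers (118 to 126 and 107 to 127), of dendritic cell markers (4.73 to 6.4 and 5.95 to 7.68) and of mast cell and basophil markers (4.04 to 4.35 and 3.6 to 5.7) overlapped between the genotypes, although Col1a2 of the fibroblast list fell (log2 fold change -1.0, edgeR adjusted p = 0.0121). The 3 dendritic cell markers tested, Flt3, Zbtb46 and Ccr7, had log2 fold changes of 0.67, 0.69 and 0.03. None of them passed (edgeR adjusted p = 0.137, 0.12 and 0.928), and Ccr7 was the most abundant of its list. B cell and NK cell markers summed to at most 0.398 and 0.884 CPM in any library. The part of these differences in the changes of the 10 transcripts was not tested.

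The genes whose centered log2 CPM values were most like those of the 5 transcripts over the 6 libraries were named by the root mean square difference on the log2 scale. They were Zbtb18 (0.0184) and Lif (0.0323) for Dusp4, Lrrc8d (0.0221) and Plau (0.0224) for Dusp5, Themis2 (0.0166) and Ap2a2 (0.0198) for Dusp6, Pcyt1a (0.0129) and Eif4enif1 (0.0187) for Dusp16, and Gmps (0.0134) and Uso1 (0.0285) for Spred1. Each pattern is mostly the difference between the genotypes, so many genes with a change of like size come close to it.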

How the data were processed

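RNA-seq libraries of sorted TAMs were compared, 3 for each genotype, with genotype and replicate number taken from the labels. Raw counts for each Ensembl gene were deposited by the authors. Per the study's methods and processing notes, reads were checked with FastQC (0.11.5), trimmed with cutadapt (2.5), aligned to GRCm38 with STAR (2.7.3a) as paired-end 42-nt reads from a stranded polyA kit, and counted with featureCounts (Subread 1.6.2). The strand setting of the counting and the treatment of multi-mapped reads are not given in the sources used here, so overlapping and antisense genes are named beside the results. The authors also deposited a table of normalized signal for 16552 genes, which are the counts divided by 1 DESeq2 (1.24.0) size factor per library (0.895 to 1.08). Normalized counts in the text are these values. All sample columns were used (0 left out).

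The comparison used edgeR (4.0.16, R 4.3.3) on raw counts with filterByExpr (minimum count 10, minimum total 15), TMM scaling, robust glmQLFit and the two-sided glmQLFTest, and Benjamini-Hochberg adjustment over the 14469 genes tested, with a threshold of 0.05. Ensembl IDs were matched to symbols, positions, exon lengths and GC content in the GENCODE annotation of GRCm38 (14461 of the tested IDs), which is not the release the authors counted on. The common biological coefficient of variation was 8.92%. A count of 3, the floor for a transcript with no counts, is 0.0583 to 0.0717 CPM (counts scaled to a common library total) here. Replicates differed by far more than counting noise in each pair, and the labels do not say whether libraries came from separate mice, so p-values measure the spread between these libraries. Checked on simulated counts for 14206 genes, 3 against 3, edgeR recovered 37 of 62 genes changed 1.5-fold, 55 of 70 changed 2-fold and 63 of 68 changed 3-fold, with 15 false calls. The simulated counts varied independently by gene and held no trend with GC content. The recovery and false calls therefore do not describe libraries with such a trend. Most of the changes described here are smaller than 1.5-fold.

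Alternatives were RLE size factors, library size alone, looser and stricter filters, DESeq2 (1.42.0) with Benjamini-Hochberg or Storey adjustment, limma-trend (3.58.1) on log2(normalized value + 1), the replicate number as a block, loess offsets for GC content and length (span 0.5), each library left out with and without these offsets, the 4 libraries without the pair that stood apart, and a test against a fold change of 1.2. The members and gene lists were chosen with earlier results of these data known. Named genes were the 10 members, Pdcd1 and Lyz2, up to 4 genes past the threshold in each pathway list with the smallest p, up to 2 abundant ones not past it, and for each member that passed the 2 genes with the most similar profile. Some genes outside this rule (Spry4, Fosl1, Egr1, Ccnd1, Ier2, Etv1, Etv5, Flt3, Zbtb46) were named after their values were seen. Of the pathway genes not tested, Dusp26 and Mapk10 had no counts. Exact permutation tests used scipy (1.17.1).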

Additional observations from a re-analysis of the deposited data

How the results depend on the processing

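With RLE size factors, library size alone, at least 10 counts in every library and limma-trend, the counts of all genes, of the 10 transcripts and of pathway genes that passed stayed within 1.5 times the main values of 786, 5 and 11. Library size alone left 4 of the 10, without Dusp16 (edgeR adjusted p = 0.0501). All genes that passed numbered 1951 with every gene of at least 1 count, 1599 with DESeq2 and Benjamini-Hochberg adjustment, 1950 with Storey q-values, 2585 with offsets for GC content and length and 3757 without both libraries that stood apart. Pathway genes numbered 21, 23, 24, 27 and 33 in the same order. Against a minimum fold change of 1.2, 193 genes, 1 pathway gene and 0 of the 10 transcripts passed in edgeR, 3 of the 10 at an unadjusted p under 0.05. With 1 library left out, 222 to 3181 genes, 0 to 7 of the 10 and 1 to 31 pathway genes passed, highest without Pdcd1f/f replicate 1. With the offsets and 1 library left out (Pdcd1f/f replicate 1, 2 or 3, then those with Cre in the same order), 3369, 1478, 1741, 1892, 1913 and 2018 genes, 5 to 6 of the 10 and 32, 15, 20, 22, 23 and 24 pathway genes passed. The replicate numbers did not pair the libraries (correlations of same-numbered deviations of -0.0147, -0.0889 and 0.186). A fit with the number as a replicate block gave 1027 genes, the count of 5 and 14 pathway genes, and with the offsets 2614, 5 and 26.

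Of 240 values for the 10 transcripts over the 24 alternatives, 190 kept their direction and side of the threshold, 25 lost and 11 gained a call, and 14 changed sign, all of them for Spry1 and Spry2. Spry1 was at 0.0269 with the offsets, at 0.0294 with offsets and block, and at 0.103, 0.0173, 0.0646, 0.0104 and 0.00742 with offsets and without Pdcd1f/f replicate 1 or 2 or Pdcd1f/fLysMcre replicate 1, 2 or 3. Spry2 was at -0.0131 and -0.0135 in the same fits, at -0.0371 and -0.0195 without Pdcd1f/f replicate 1 and without Pdcd1f/fLysMcre replicate 3, and at -0.0978, -0.0334 and -0.0799 with offsets and without Pdcd1f/f replicate 1 or Pdcd1f/fLysMcre replicate 1 or 3. Over the fits that left out 1 library with no offsets, Spry2 ranged from -0.0371 to 0.08. The cause was not tested. Dusp10, Spry1 and Spry2, the transcripts with the fewest counts, have wider intervals than the abundant ones.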
